A study of Mus musculus with 6 samples.

Results

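The nuclear genes of the mitochondrial respiratory chain and of ATP synthase were described across 6 RNA-sequencing libraries of mouse Th9 cells. Genes were chosen by symbol: those starting with Nduf, Uqcr or Atp5, those starting with Cox and then a digit from 4 to 8, and Sdha to Sdhd. Of 23091 gene symbols, 90 matched by name, and 85 of these reached 1 FPKM (fragments scaled to transcript length and library size) in at least 1 library. The other 5, Cox7b2, Cox8b, Cox8c, Ndufa4l2 and Ndufs5, were listed at 0 in all 6 libraries. Of the 85, 5 encode assembly factors of complex I rather than subunits (Ndufaf1, Ndufaf2, Ndufaf3, Ndufaf4 and Atp5sl). Cox4nb encodes no respiratory chain subunit either. It is the gene next to Cox4i1 and is now called Emc8.

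Th9 cells are helper T cells driven in culture toward production of interleukin 9. Naive CD4 T cells were taken from wild-type C57/Bl6j mice aged 7 weeks and plated on coated CD3 and CD28 antibodies. The medium held 20 ng/ml IL-4, 2 ng/ml TGFβ and an antibody against interferon γ, and 3 of the 6 groups also received 10 ng/ml interleukin 1β (IL-1β). The 6 groups of 1 library each were cells without and with IL-1β cultured for 1 h, cultured for 3 days (day 3), and recovered after transfer (in vivo). For transfer, cells with the CD45.2 allele were cultured for 3 days, given by injection to mice with CD45.1, and recovered by sorting 1 week afterwards. The sources used here do not give the tissue or the number of animals. RNA was depleted of rRNA for the 1 h pair and selected by poly(A) tail for the other 4 libraries. With 1 library a group, no comparison of single groups carries a p-value, and the spread between cultures or mice is unknown.

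The respiratory chain moves electrons through 4 membrane complexes and pumps protons across the inner mitochondrial membrane, and ATP synthase uses that gradient to make ATP. Complex I (NADH dehydrogenase) has a core that carries electrons and a shell of accessory subunits. Complex II (succinate dehydrogenase) also works in the citric acid cycle. Complex III passes electrons to cytochrome c, complex IV (cytochrome c oxidase) passes them to oxygen, and ATP synthase has a catalytic head (F1) on a membrane rotor (Fo). Some core subunits are encoded by mitochondrial DNA, and those genes are not analysed here. T cells raise respiration and glycolysis together when they are activated.

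Transcription factors known for control of these genes include NRF1, GABPA and YY1, so the members' promoters were searched for their consensus letters on both strands. Promoter windows of RefSeq (GRCm38.p6, 250 bases before to 50 after each start) were matched by symbol for 71 of the 85 genes. The NRF1 letters (GCGCA, any base, then GCGC) stood in 17 of the 71 (23.9%), against 12.99% of 7175 symbols with at least 5 FPKM in a poly(A)-selected library and 7.17% of 17492 protein-coding genes. The GABPA letters CCGGAAG stood in 17 of the 71 as well (23.9%), against 23.6% and 12.9%. The YY1 letters (AAGATGG followed by CGG) stood in 6 of the 71 (8.45%), against 2.95% and 1.41%. At least 1 of these motifs stood in 34 of the 71 (47.9%), against 35.2% and 19.5%. The motifs were searched separately, and a match is a run of letters, not evidence of binding. The NRF1 letters were found beside genes of every complex: Ndufa5, Ndufa6, Ndufa8, Ndufa11, Ndufaf4, Ndufb4 and Ndufs6 of complex I, Sdha and Sdhd of complex II, Uqcrc1 of complex III, Cox6a1 of complex IV, and Atp5c1, Atp5g2, Atp5g3, Atp5h, Atp5k and Atp5o of ATP synthase. The YY1 letters stood beside Atp5j, Atp5sl, Ndufa9, Ndufs4, Ndufs6 and Ndufs7.

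The sequences that follow show 1 gene of each complex, with the matched letters in capitals, and Cox7a1, a complex IV gene of muscle that had no match in its window and was listed at 0 in both in vivo libraries. They are stretches before the start that lie in no annotated exon, 5′ to 3′ on the gene's strand, with GRCm38.p6 coordinates. Capitals mark the NRF1 letters in Ndufb4, Cox6a1 and Atp5h and the GABPA letters, read on the opposite strand, in Sdhd and Uqcrh. The other matches of these genes lie outside the stretch shown.

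Ndufb4, chr16:37654454-37654618, - strand: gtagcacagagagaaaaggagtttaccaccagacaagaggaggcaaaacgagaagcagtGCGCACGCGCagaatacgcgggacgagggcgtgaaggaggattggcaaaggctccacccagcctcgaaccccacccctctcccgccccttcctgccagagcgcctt

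Sdhd, chr9:50603850-50603909, - strand: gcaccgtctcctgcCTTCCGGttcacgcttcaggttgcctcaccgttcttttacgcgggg

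Uqcrh, chr4:116075072-116075251, - strand: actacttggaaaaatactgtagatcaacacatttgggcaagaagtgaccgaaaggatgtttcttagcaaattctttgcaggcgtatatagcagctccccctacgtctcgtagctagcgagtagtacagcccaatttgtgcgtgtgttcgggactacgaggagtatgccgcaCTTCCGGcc

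Cox6a1, chr5:115348982-115349129, - strand: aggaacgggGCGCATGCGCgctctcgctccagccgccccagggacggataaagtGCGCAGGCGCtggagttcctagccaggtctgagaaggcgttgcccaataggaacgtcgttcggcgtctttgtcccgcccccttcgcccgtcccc

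Atp5h, chr11:115419963-115420127, - strand: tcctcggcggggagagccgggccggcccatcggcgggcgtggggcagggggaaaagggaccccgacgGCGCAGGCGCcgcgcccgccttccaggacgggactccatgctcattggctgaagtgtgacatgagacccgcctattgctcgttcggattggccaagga

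Cox7a1, chr7:30183964-30184143, + strand: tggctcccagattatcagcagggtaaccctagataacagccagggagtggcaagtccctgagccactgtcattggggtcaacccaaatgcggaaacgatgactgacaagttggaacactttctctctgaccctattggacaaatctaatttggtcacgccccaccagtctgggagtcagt

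The 1 h libraries differed in kind from the other 4. Transcripts without a poly(A) tail made up 87.4% and 90.2% of their summed FPKM (without and with IL-1β), and 0.501% to 1.23% of that of the other 4. Members at 5 FPKM or more numbered 21 and 16 at 1 h, 81 in each day 3 library, and 79 and 80 after transfer. Among these members at 5 FPKM or more, the half-width of the deposited interval was, at the median, 97.0% and 68.7% of the FPKM at 1 h. It was 18.8% and 17.0% in the day 3 pair, and 21.5% and 22.6% after transfer. For 30 to 39 members in each poly(A)-selected library the FPKM lay above its own upper bound, so for these mostly short genes the bounds do not enclose the value. The 14 genes of the T cell identity list (Cd3e, Cd4, Lck and others) were above 0 in each library except for 1 gene at 1 h without IL-1β. Markers of alveolar and airway epithelium summed to 19.7 and 19.6 FPKM at day 3 but to 6719 and 17486 FPKM in vivo (1.86% and 4.75% of the library), and myeloid markers to 181.2 and 229.1 FPKM at day 3 and 1377 and 3091 FPKM in vivo.

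In the poly(A)-selected libraries these genes were abundant and kept much the same order. They held 3.37% and 4.08% of all summed FPKM at day 3 without and with IL-1β, and 3.28% and 2.73% in vivo. Complex IV and the complex I accessory subunits took the largest parts: complex IV held 0.927% and 1.13% at day 3 and 0.936% and 0.739% in vivo, and the accessory subunits 0.850%, 1.15%, 0.883% and 0.703%. The complex I core held 0.112%, 0.117%, 0.0967% and 0.0941% in the same order. Complex II held 0.0938%, 0.102%, 0.0994% and 0.0702%. Across the 85 genes, the rank correlation (Spearman's rho) between any pair of these libraries was 0.955 to 0.983. This describes genes of shared length and annotation, not independent replicates.

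**Figure D1:**
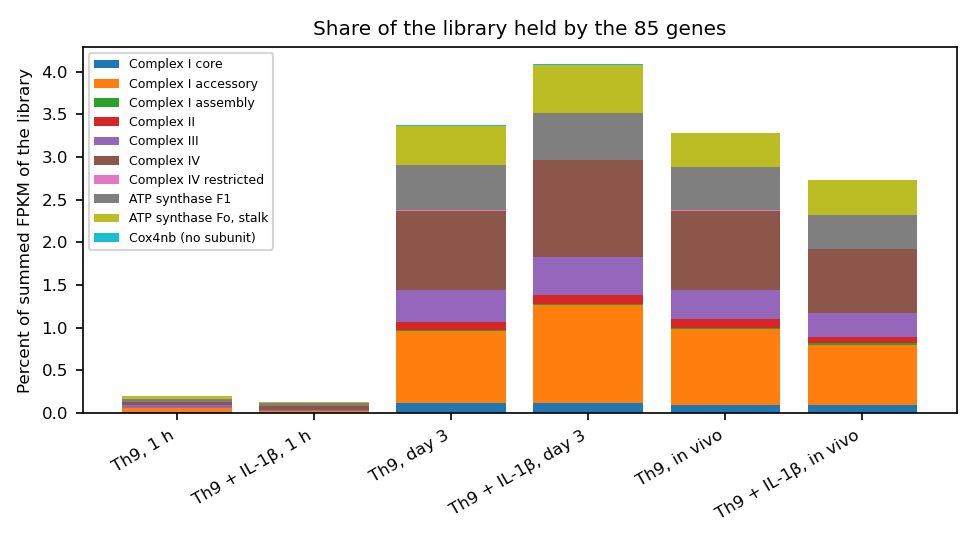
Stacked bars give the percent of each library's summed FPKM held by the 85 genes, split by complex, for the 6 libraries. The bars stand at 0.195% and 0.129% at 1 h, where the total includes abundant transcripts without a poly(A) tail, and between 2.73% and 4.08% in the other 4 libraries.

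FPKM are per transcript length, and the order of levels given here is that of the deposited FPKM alone. For many members it is uncertain, since the FPKM lies above its own upper bound: at day 3 without IL-1β Cox6a1 had 755.2 FPKM with bounds of 430.7 and 546.6, and Atp5b 599.6 FPKM with bounds of 514.2 and 581.5. The highest mean over the poly(A)-selected libraries was that of Cox6a1 (750.2 FPKM), a small complex IV subunit. Its values were 755.2 and 934.5 FPKM at day 3 and 704.8 and 606.4 FPKM in vivo (without and with IL-1β, the order used throughout). Cox8a, the smallest complex IV subunit, followed at a mean of 677.2 FPKM, with 660.2, 754.3, 824.6 and 469.7 FPKM. Atp5b, the catalytic β subunit of ATP synthase, had 599.6, 666.4, 511.9 and 451.5 FPKM. Atp5d and Atp5k, the F1 δ and Fo e subunits, had means of 431.5 and 407.8 FPKM, and Atp5e (407.4) and Cox6b1 (406.9) were close behind. For Cox6a1, Atp5b, Atp5d and Atp5k the day 3 library with IL-1β was the highest of the 4, and for Cox8a it was second to the in vivo library without IL-1β.

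The catalytic cores stood at different levels. F1 genes had a median of 399.3 and 516.5 FPKM at day 3 and 391.0 and 304.6 FPKM in vivo, and Atp5c1, the γ shaft, stood at 224.0, 276.8, 208.9 and 158.4 FPKM. Atp5a1, the α subunit, had 276.9, 273.2, 229.1 and 212.2 FPKM, below Atp5c1 only at day 3 with IL-1β. Complex I core genes had a median of 59.6, 75.5, 48.2 and 47.6 FPKM. Within that core Ndufs7 led with 105.4, 115.2, 83.3 and 103.9 FPKM, and Ndufs1, the largest iron-sulfur subunit, was lowest with 19.7, 22.6, 18.6 and 20.8 FPKM. Ndufs3 stood at 24.0, 24.6, 25.5 and 24.5 FPKM, nearly level across the 4 libraries.

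Complex II genes were led by Sdhb, the iron-sulfur subunit, at 144.0, 184.1, 162.0 and 103.2 FPKM. Sdha, the flavoprotein, stood at 56.7, 57.1, 64.3 and 43.8 FPKM, and the membrane anchors at 82.0, 109.6, 80.0 and 72.1 FPKM (Sdhc) and 55.6, 66.0, 52.8 and 39.2 FPKM (Sdhd). In complex III the core proteins Uqcrc1 (128.8, 136.6, 124.5 and 107.8 FPKM) and Uqcrc2 (85.1, 89.4, 83.4 and 68.8 FPKM) and the Rieske iron-sulfur protein Uqcrfs1 (78.6, 91.0, 72.0 and 60.5 FPKM) were lower than the small subunits Uqcrh, Uqcrq and Uqcr10, each above 238 FPKM in every one of these libraries. Not every small subunit stood so high, as Uqcrb had 58.9, 119.1, 41.0 and 24.0 FPKM, below Uqcrc1 in each library. For all 4 complex II genes and for Uqcrc1, Uqcrc2 and Uqcrfs1, the in vivo library with IL-1β was the lowest of the 4.

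**Figure D2:**
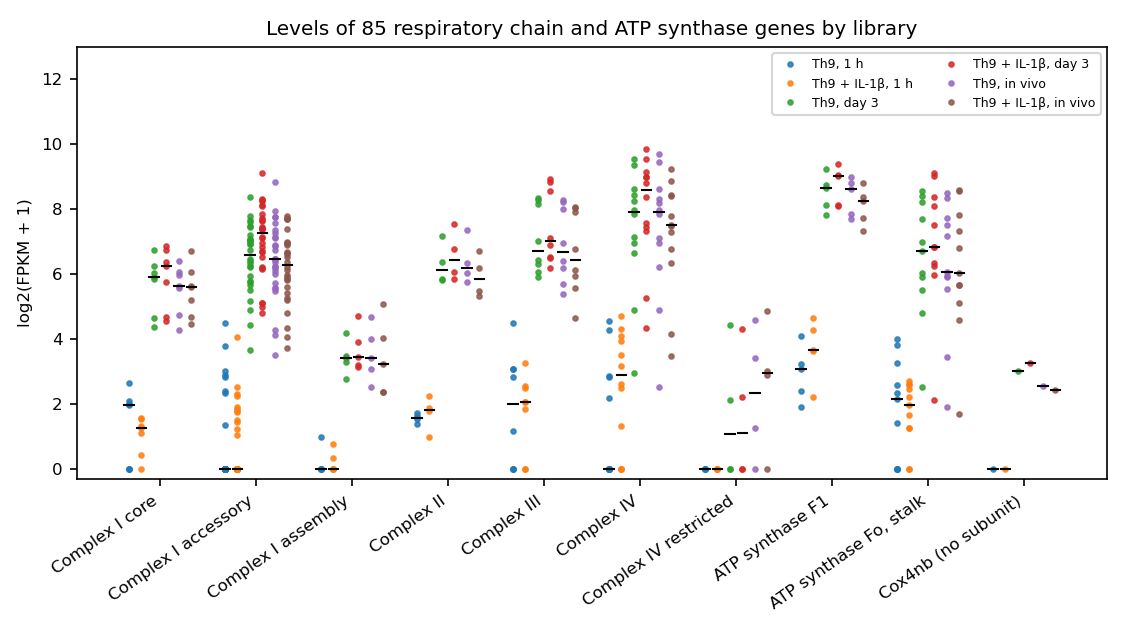
Points give log2(FPKM + 1) of each of the 85 genes, in columns by complex and colours by library, and black lines the median of each column. F1 genes sit highest, complex I assembly factors and the restricted complex IV genes lowest, and many 1 h points lie at 0.

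Subunit c, which forms the rotor ring, is encoded by Atp5g1, Atp5g2 and Atp5g3. Atp5g3 supplied most of their summed FPKM, with 63.9% and 59.6% at day 3 and 65.9% and 66.5% in vivo. Atp5g1 supplied 13.9%, 20.4%, 13.9% and 14.5%, so its share stood highest at day 3 with IL-1β, where it reached 114.2 FPKM against 64.6 without. All of the 50-base windows of the Atp5g2 transcript, and 66.0% of those of Atp5g1, also occur in other annotated genes, so reads of these genes could be split between copies.

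At 1 h only 28 members reached 5 FPKM in either library, and the values resolve few fragments. The FPKM of low genes in the 2 libraries fell on a ladder of ratios, from which 1 fragment was worth 2.33 times more FPKM in the library without IL-1β. Of the 33 members above 0 in both 1 h libraries, 25 stood at a ratio of whole numbers up to 4 within 0.02 on the log2 scale, 9 of them at 1 fragment to 1. Another 26 members were listed at 0 in both libraries, 20 were above 0 only with IL-1β and 6 only without. A difference of a few fold at this stage is therefore a difference of a few fragments.

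A member was counted in a comparison when its 2 values of FPKM + 1 differed by 2-fold or more, 1 of them reached 5 FPKM and the deposited intervals stood apart. At 1 h this rule counted 4 of the 28 members compared as higher with IL-1β and 0 as lower, while it counted 7.93% of all 933 symbols compared (7.72% higher, 0.214% lower). The 4 were Cox4i1, the largest nuclear-encoded subunit of complex IV, at 25.1 FPKM (interval 12.2 to 39.2), Cox8a at 16.2, Ndufa6 at 15.6 and Cox6b1 at 10.3 FPKM, and each was listed at 0 without IL-1β. In the opposite direction Ndufa3 (21.6 FPKM, interval 0 to 42.9), Atp5k (15.1), Ndufb2 (7.03) and Ndufv3 (6.36) were listed at 0 with IL-1β and were not counted, as their intervals reached 0. Leaving out symbols listed at 0 in either library removes these 4 by construction, and 0 members were then counted. Cox4i1 stood between 340.6 and 505.5 FPKM in the poly(A)-selected libraries, so its listed 0 at 1 h is that of a gene these cells carry at other stages.

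From 1 h to day 3 all 81 members compared without IL-1β were counted as higher, and 80 of 81 with IL-1β, the exception being Cox7c (4.57 and 19.1 FPKM). The rule counted 95.7% and 95.5% of all symbols as higher in these comparisons (96.0% in either direction in both), so the rule counted nearly every symbol here and hardly separates members from the rest. At an equal median ratio, 50 of 74 members compared and 2200 of 5023 symbols were higher without IL-1β, and 64 of 76 and 2244 of 5080 with it. With the length trend removed the counts were 37 of 81 members and 1953 of 7628 symbols without IL-1β, and 46 of 81 and 1860 of 7336 with it. The median log2 ratio was 4.89 for members and 3.44 for all symbols without IL-1β, and 5.46 and 3.25 with it. RNA selection differed between these stages, and stage and selection cannot be told apart.

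With IL-1β at day 3 most of these genes stood slightly higher, and 1 passed the size rule. Of 81 members compared, 75 had a log2 ratio above 0 and 6 below. The median was 0.43 (1.35-fold), against -0.05 for all 7962 symbols. The rule counted 1 member higher and 0 lower, beside 3.44% of all symbols (1.29% higher, 2.15% lower). The counted gene was Ndufs6, a zinc-binding accessory subunit of complex I on chr13:73457324-73465930 (mm9). It stood at 129.3 FPKM without IL-1β (interval 98.1 to 161.2) and 279.5 with it (231.9 to 327.1), a log2 ratio of 1.11, and at 162.4 and 123.9 FPKM in vivo. Its day 3 value with IL-1β was the highest of the 6 libraries.

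The shift was uneven among complexes. Complex I accessory subunits had a median log2 ratio of 0.62 (26 of 28 above 0), complex IV 0.54 (12 of 12) and the Fo and stalk genes 0.49 (10 of 10). Complexes II and III had 0.30 each, F1 genes 0.28 and the complex I core 0.13. The largest ratios were those of Cox7c (6.72 and 19.1 FPKM, log2 1.38), Ndufc1 (60.02 and 138.6 FPKM, 1.19), Atp5l (26.7 and 62.0 FPKM, 1.19) and Ndufa5 (44.7 and 100.8 FPKM, 1.16). All 4 were over 2-fold but were not counted, because the intervals overlapped. Among core genes Ndufv2 was the exception at 59.6 and 105.8 FPKM (0.82), while Ndufv1, which binds NADH, stood at 57.2 and 53.5 FPKM (-0.10). Sdha (0.01), Atp5a1 (-0.02) and Ndufs3 (0.04) were level. The other low ratios were those of the assembly factor Ndufaf1 (9.73 and 8.24 FPKM, -0.22), Cox6b2 (-0.11) and Ndufa10 (-0.09).

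**Figure D3:**
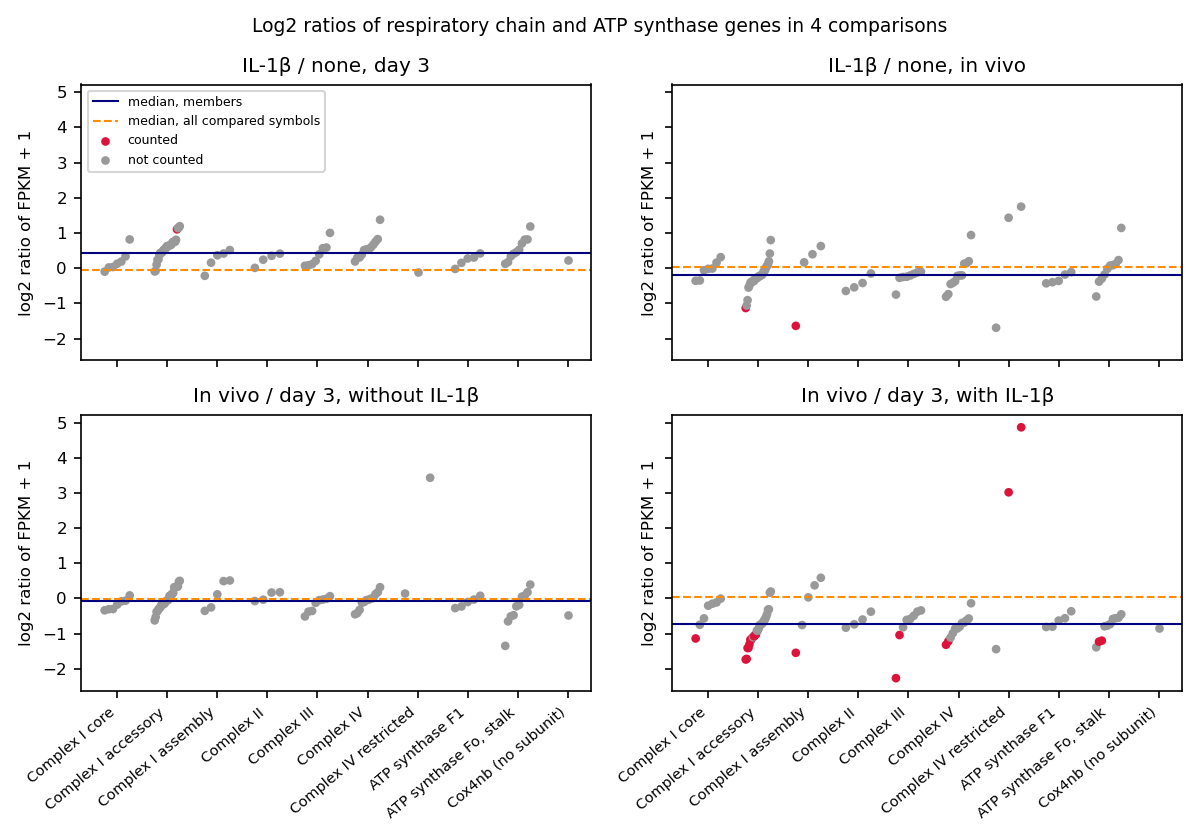
Each point is the log2 ratio of FPKM + 1 of 1 gene in 1 of 4 comparisons, by complex, with counted genes in red, the members' median as a solid line and that of all compared symbols as a dashed line. The solid line lies above the dashed one at day 3 (0.43 against -0.05) and far below it for in vivo against day 3 with IL-1β (-0.74 against 0.04).

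Transcript length moved with this difference. The median annotated length was 747 bases for members and 2248 for all symbols with a length. At day 3 the median log2 ratio of other symbols fell from 0.37 in the shortest of 5 length bins to 0.15, -0.06, -0.21 and -0.45 in the longer ones. In that shortest bin the 60 members had a median of 0.53, and the 13 members of the next bin had 0.15, the value of the other symbols there. The 6 members of the third bin had 0.22 against -0.06 for other symbols, and the 2 of the fourth 0.19 against -0.21. A gene's length here is the median over its annotated transcripts. By it Atp5g1, Ndufab1 and Ndufb2, in the third bin, had 2675, 2447 and 2413 bases. Their transcripts searched for shared windows have 596, 1416 and 455 bases in the same order. The bin of these genes is therefore uncertain, and the third bin also holds Cox4nb, which encodes no subunit. The fourth bin holds the assembly factor Ndufaf4. With the length trend removed, the members' median was 0.07 and Ndufs6 had a log2 ratio of 0.61 and was not counted, leaving 0 members. Ndufs6 was also not counted after rescaling to T cell identity genes (0.99). Nor was it counted when transcripts without a poly(A) tail were left out and the remaining sums made equal (0.92). The transcripts left out were only 0.608% and 0.707% of the 2 libraries. The remaining sums were 358417 and 407145 FPKM without and with IL-1β, so this setting mostly evens out unequal sums. What part length has in the result was not tested beyond these values.

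**Figure D4:**
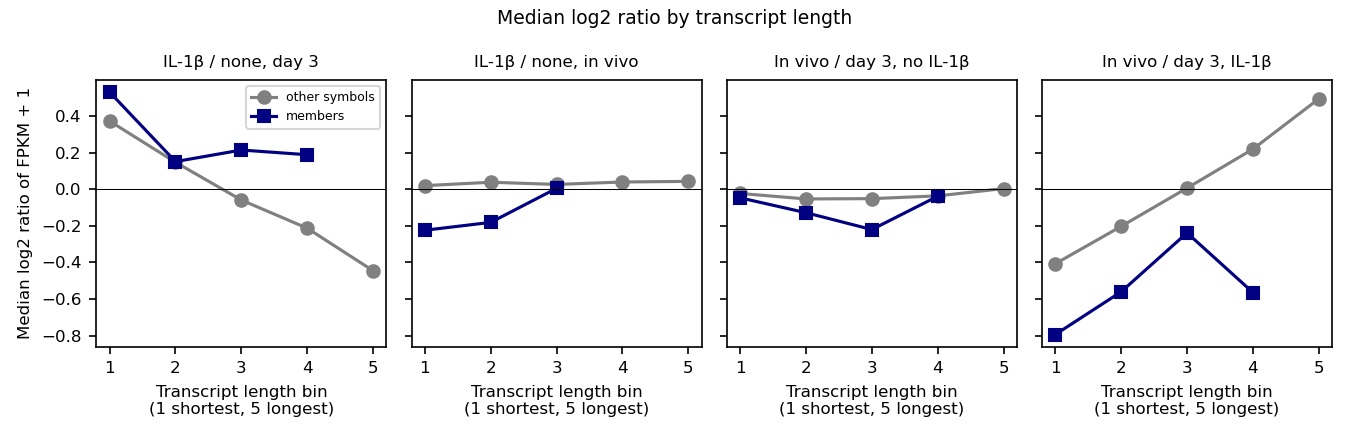
Median log2 ratio of FPKM + 1 in 5 bins of transcript length, for members (squares) and other symbols (circles), in 4 comparisons. Among other symbols it falls with length for IL-1β at day 3 (0.37 to -0.45), climbs for in vivo against day 3 with IL-1β (-0.41 to 0.50) and stays within 0.06 of 0 in the other panels, and the member bins after the first hold 13 genes or fewer.

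In vivo, cells that had been cultured with IL-1β had slightly lower values of these genes. Of 81 members compared, 22 had a log2 ratio above 0 and 59 below, with a median of -0.21 (all 8639 symbols 0.03). The rule counted 2 members lower and 0 higher, beside 9.71% of all symbols (6.23% higher, 3.48% lower). They were Ndufa3, a complex I accessory subunit on chr7:3568975-3571763 (mm9), and Ndufaf3, a complex I assembly factor on chr9:108468196-108469673 (mm9). Ndufa3 stood at 457.3 and 208.2 FPKM (log2 -1.13), and at 328.5 and 554.1 FPKM at day 3. Each of these values lies above its own upper bound, as in vivo with IL-1β (interval 44.6 to 106.6). Ndufaf3 stood at 14.99 FPKM (7.16 to 22.8) and 4.14 FPKM (1.27 to 6.98), a log2 ratio of -1.64, and at 10.2 and 14.0 FPKM at day 3. Its in vivo intervals nearly touch, and it was not counted after scaling to an equal upper quartile or to T cell identity genes.

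All members of complex II (median -0.48), complex III (-0.22) and F1 (-0.36) had ratios below 0 in vivo. Complex IV had a median of -0.21 and the complex I core -0.02, and the Fo and stalk genes split evenly at 0.03. The lowest ratio of all was that of Cox6b2 (22.8 and 6.38 FPKM, -1.69), and Ndufa1 (87.9 and 41.6 FPKM, -1.06) followed Ndufaf3 and Ndufa3. Neither Cox6b2 nor Ndufa1 was counted. After Cox4i2 and Cox6a2, described further on, the highest were Atp5l (9.90 and 23.1 FPKM, 1.15) and Cox7c (4.79 and 10.1 FPKM, 0.94), also not counted, and 84.8% and 53.0% of the 50-base windows of these genes occur in other annotated genes, mostly pseudogenes. The median with the length trend removed was -0.18, and the same 2 genes were counted. Epithelial and myeloid markers summed to more FPKM with IL-1β than without (values above), and their part in these ratios was not tested. With these and stroma, endothelial, B cell and erythroid markers left out and the remaining sums made equal, the median was also -0.18. The members' median minus that of all symbols was -0.24 both then and as reported. Such a scaling cannot show what other cells add to these genes themselves.

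Of the 79 members compared in both IL-1β pairs, 54 were above 0 at day 3 and below 0 in vivo, 19 were above 0 in both, 5 below 0 in both and 1 below and then above. Neither stage has a replicate, so this difference between stages was not tested.

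Without IL-1β the in vivo and day 3 libraries were close. Of 82 members compared, 30 had a log2 ratio above 0 and 52 below, with a median of -0.06 (all 8126 symbols -0.03). The rule counted 0 members in either direction, beside 2.79% of all symbols (2.13% higher, 0.665% lower). Scaling to an equal upper quartile moved the median of all symbols by 0.15 and that of the members to 0.09, so the sign of this median depends on the scaling. The largest drops were those of Atp5l (26.7 and 9.90 FPKM, -1.35), Atp5g2 (103.2 and 65.4 FPKM, -0.65), Ndufa11 (28.7 and 18.3 FPKM, -0.62) and Ndufb3 (127.5 and 88.1 FPKM, -0.53). The highest ratios above a listed 0 were those of Ndufaf3 (0.51), Ndufa5 (0.50) and Ndufaf2 (0.49).

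With IL-1β the in vivo library was lower than the day 3 library for nearly all members. Of 83 compared, 76 had a log2 ratio below 0 and 7 above, with a median of -0.74 (0.601-fold), against 0.04 for all 8572 symbols. The rule counted 19 members lower and 2 higher, beside 17.9% of all symbols (5.87% lower, 12.0% higher). The 19 were 11 accessory subunits of complex I (Ndufa1, Ndufa2, Ndufa3, Ndufa5, Ndufa8, Ndufa9, Ndufa12, Ndufa13, Ndufb3, Ndufs4 and Ndufs6), the core subunit Ndufv2, the assembly factor Ndufaf3, Uqcrb and Uqcrq of complex III, Cox6c and Ndufa4 of complex IV, and Atp5g1 and Atp5h of ATP synthase. Complex II had 0 of 4 counted and F1 0 of 5.

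Uqcrb, a small complex III subunit that binds ubiquinone (chr13:67001557-67006286, mm9), had the lowest ratio at -2.26. It stood at 119.1 FPKM at day 3 and 24.0 in vivo with IL-1β, and at 58.9 and 41.0 FPKM without. Ndufa1 followed with 140.8 and 41.6 FPKM (-1.73), then Ndufa12 with 91.6 and 27.2 FPKM (-1.72) and Ndufaf3 with 14.0 and 4.14 FPKM (-1.54). For each of these 4 the day 3 library with IL-1β was the highest of the 4 and the in vivo one with IL-1β the lowest, except that Ndufaf3 was highest in vivo without IL-1β. By complex the medians were -0.88 for complex I accessory subunits, -0.83 for complex IV, -0.75 for Fo and stalk, -0.67 for complex II, -0.63 for F1, -0.59 for complex III and -0.20 for the complex I core. Of the core, Ndufv2 was counted (105.8 and 47.6 FPKM, -1.14) and Ndufs3 (-0.0042), Ndufs1 (-0.11) and Ndufs7 (-0.15) were nearly level. Assembly factors Ndufaf2 (25.3 and 33.0 FPKM, 0.37) and Atp5sl (9.97 and 15.5 FPKM, 0.59), the second now named Dmac2, stood higher in vivo and were not counted.

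This comparison shares the day 3 library with IL-1β with the IL-1β comparison at day 3, so a high value there enters both. The 19 genes counted lower had log2 ratios of -2.26 to -1.02 here, 0.38 to 1.16 for IL-1β at day 3, and -0.53 to 0.51 for in vivo against day 3 without IL-1β, where 12 of the 19 were below 0. The count also moved with length and scaling. Other symbols climbed from a median of -0.41 in the shortest length bin to 0.50 in the longest, while the 62 members in the shortest bin had -0.79 and the 13 in the next -0.56 (other symbols -0.20). The 6 members of the third bin had -0.24 against 0.01 for other symbols, and the 2 of the fourth -0.56 against 0.22. Here too the third bin holds Cox4nb and, by their uncertain median lengths, Atp5g1, Ndufab1 and Ndufb2, and the fourth holds Ndufaf4. With the length trend removed the members' median was -0.26 and the lower count 2 (Uqcrb and Atp5g1). For Atp5g1 that fit used the median length of 2675 bases, while its transcript searched for shared windows has 596. Whether it would be counted at the shorter length was not tested. Over all symbols the lower count was then 366 of 8502, against 503 of 8572 as reported. With an equal upper quartile 8 members and 272 of 8653 symbols were lower, and after rescaling to T cell identity genes 8 members and 280 of 8869 symbols. With transcripts without a poly(A) tail left out and the remaining sums made equal, 11 members and 325 of 8788 symbols were lower. With markers of other cell types left out and the remaining sums made equal, 7 members and 249 of 8922 symbols were lower. In all 4 of these scalings and totals, Cox6c, Ndufa1, Ndufa2, Ndufa3, Ndufa12, Ndufb3 and Uqcrb were counted lower. Each of the 4 multiplies a whole library by 1 factor, so they are not independent of each other. For these genes except Ndufa2, the day 3 FPKM with IL-1β lay above its own upper bound, so the interval part of the rule is uncertain for them.

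The 2 members counted higher in vivo with IL-1β were complex IV subunits of restricted expression. Cox4i2, a form of subunit 4 known from lung and from low oxygen (chr2:152579909-152590773, mm9), was listed at 0 at 1 h and day 3, and stood at 1.41 FPKM (0 to 2.87) in vivo without IL-1β and 7.09 FPKM (1.86 to 12.1) with it. Cox6a2, the heart and muscle form of subunit 6a (chr7:135348949-135349880, mm9), was likewise listed at 0 at 1 h and day 3, and stood at 9.78 FPKM (0 to 19.6) and 28.1 FPKM (14.9 to 43.0) in vivo. Each was above 0 in both in vivo libraries and higher in the one with IL-1β, with overlapping intervals between them. As a share of the pair with the ubiquitous form, Cox4i2 made up 0.357% and 2.04% in vivo and Cox6a2 1.37% and 4.43%.

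Markers of other cells stood beside these values. The pericyte and stroma list summed to 0.762 and 0.770 FPKM at day 3 and to 9.90 and 75.2 FPKM in vivo (7 and 2 of 15 genes at 0), and endothelial markers to 17.0 and 14.4 FPKM at day 3 and 56.7 and 121.6 FPKM in vivo (0 of 8 at 0). Erythroid genes (globins and others) summed to 3.03 and 4.65 FPKM at day 3 and 374.9 and 680.0 FPKM in vivo (3 and 1 of 7 at 0). These 3 lists, like the epithelial one, were higher in the in vivo library with IL-1β. B cell markers were lower there, with sums of 22.0 and 23.0 FPKM at day 3 and 45.7 and 28.8 FPKM in vivo. The part of any of these lists in the Cox4i2 and Cox6a2 values was not tested. Markers of striated muscle summed to 5.80 and 0.888 FPKM at day 3 and to 4.17 and 10.2 FPKM in vivo (11 and 9 of 15 genes at 0). They too were higher in the in vivo library with IL-1β, and their part was not tested either. In bulk RNA, fewer cells of a type and less RNA per cell cannot be told apart.

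The other restricted forms went their own ways. Cox6b2, the testis form of subunit 6b, stood at 20.6 and 19.0 FPKM at day 3 and 22.8 and 6.38 FPKM in vivo, or 4.95%, 3.25%, 6.74% and 1.79% of its pair with Cox6b1. Cox7a1, the muscle form of subunit 7a, stood at 3.36 and 3.63 FPKM at day 3, with intervals that reach 0, and was listed at 0 elsewhere. Cox7b2, Cox8b and Ndufa4l2 were listed at 0 everywhere, so Cox7b, Cox8a and Ndufa4 made up the whole of their pairs in the poly(A)-selected libraries.

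**Figure D5:**
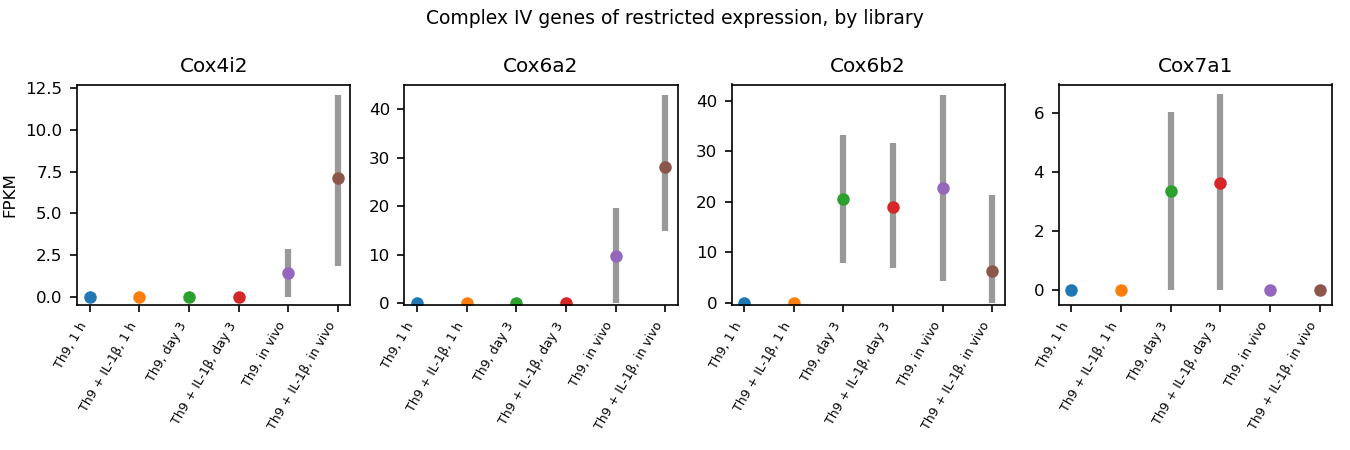
FPKM of 4 complex IV genes of restricted expression in the 6 libraries (points) with the deposited lower and upper bounds (grey bars). Cox4i2 and Cox6a2 are above 0 only in the in vivo pair, Cox7a1 only in the day 3 pair, and Cox6b2 in all 4 poly(A)-selected libraries.

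The only replication of the IL-1β contrast lies across the stages. limma on log2(FPKM + 1) with a term for stage and 2 degrees of freedom left over, called 0 of 83 members tested and 0 of 8946 symbols (0% called) at an adjusted p of 0.05. The smallest adjusted p was 0.937, among members too. Unadjusted p under 0.05 occurred for 320 symbols and 4 members, Atp5l, Cox7c, Cox6b1 and Ndufa6, with log2 differences of 1.64, 1.60, 1.39 and 1.58. Without the 1 h stage, limma called 34 symbols and 0 members, whose smallest adjusted p was 0.363. This result does not show that the genes were equal with and without IL-1β.

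Genes that work with the complexes but carry other names were read the same way. Of 5 further subunits and partners measured, 0 were counted at day 3, Atpif1 was counted lower with IL-1β in vivo (247.0 and 107.6 FPKM), and Cycs (47.7 and 15.9 FPKM) and Atpif1 (382.9 and 107.6 FPKM) were counted lower in vivo than at day 3 with IL-1β. Atpif1 encodes the inhibitor of ATP synthase and Cycs cytochrome c. Of the assembly factors, 1 of 23 compared was counted higher with IL-1β at day 3. It was Surf1, a complex IV factor, at 48.1 FPKM there and listed at 0 in the other 3 poly(A)-selected libraries. At 1 h it stood at 2.08 and 2.23 FPKM. Its value in that 1 day 3 library makes both this count and the next, and why it is listed at 0 elsewhere was not tested. In vivo against day 3 with IL-1β, 2 of 22 were counted lower, Surf1 and Cox17, the copper carrier of complex IV (303.0 and 136.9 FPKM). Of all symbols 1.29% were counted higher with IL-1β at day 3, and 3.48% lower with IL-1β in vivo. For in vivo against day 3 with IL-1β, 5.87% were lower. Citric acid cycle genes had 0 of 17 counted in each IL-1β comparison of the poly(A)-selected libraries and each transfer comparison, with medians of 0.07 at day 3 and -0.32 in vivo for IL-1β, and -0.11 and -0.42 for transfer without and with IL-1β. Regulators of mitochondrial biogenesis such as Nrf1, Gabpa, Yy1 and Tfam had 0 of 17 or 18 counted, with medians of -0.13, 0.03, -0.06 and 0.15 in the same order. Of all symbols 3.44%, 9.71%, 2.79% and 17.9% were counted in either direction in these comparisons.

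Some members share sequence with other genes. In 17 members at least 25% of the transcript's 50-base windows also occur in another annotated gene, and their mean FPKM had a median of 60.8, against 117.7 in the other 68. Cox7c, with 53.0% shared, was the lowest of the 17 at a mean of 10.2 FPKM. Values of such genes, Atp5l, Atp5h, Atp5g1, Atp5g2, Uqcrb and Ndufb4 among them, are uncertain as levels, since the sources used here do not say how the authors treated reads with several matches.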

How the data were processed

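Gene-level FPKM with a lower and an upper bound were deposited by the authors for 6 libraries, per the file headers. Per the submitters' processing notes, TopHat and build mm9 of the mouse genome were used. The sources used here do not give the tool that made the FPKM, the level of the bounds or the depth. Of 23700 entries in each file, 285 were dropped for a status that was not OK, and entries sharing a symbol were summed to 23091 symbols.

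Log2 ratios used FPKM with a pseudocount of 1. A symbol was compared when it reached 5 FPKM in 1 of the 2 libraries. The 7 comparisons carry no test. The IL-1β effect across stages was tested by limma (version 3.58.1, R version 4.3.3) on log2(FPKM + 1), two-sided, with stage as a covariate and Benjamini-Hochberg adjustment at 0.05 over all symbols that reached 5 FPKM in any library. The remaining work used Python 3.11.15, with pandas 2.3.3, numpy 2.4.6, matplotlib 3.10.9 and statsmodels 0.14.6. GENCODE M21 gave transcript lengths and shared windows. The length trend was fitted by lowess (fraction 0.3). Gene positions are on mm9 and promoters on GRCm38.p6, both counted from 1.

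The members, the gene lists, the promoter motifs and the rules were chosen with earlier results of these data known. Named genes are those counted in a comparison, the 4 highest and 4 lowest ratios in each IL-1β and transfer comparison, the 5 highest mean levels, core catalytic subunits, and isoform pairs with the subunit c genes. Other genes (further leading levels, flat or exceptional members of a complex, Ndufaf2, and regulators given as examples) were named after their values were seen. Alternatives were other pseudocounts, filters, scalings, totals and row choices, removal of the length trend, and, for limma, each stage left out. For a changed total, both libraries were scaled to an equal sum of the FPKM that remained. Mitochondrially encoded genes were not analysed here, and the result of 1 member is not reported here.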

Additional observations from a re-analysis of the deposited data

Results flagged for a closer look

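The members' median log2 ratio for IL-1β was 0.43 at day 3 and -0.21 in vivo as reported. With the length trend removed these medians were 0.07 and -0.18, and 0 members were counted at day 3 (Ndufs6 0.61). The 3 members counted in either comparison had opposite signs at the 2 stages as reported. Ndufs6 had 1.11 at day 3 and -0.39 in vivo, Ndufa3 0.75 and -1.13, and Ndufaf3 0.42 and -1.64. With 1 library a group the difference between stages was not tested.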

How the results depend on the processing

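The labels carry no replicate numbers, so no replicate block was fitted, and the limma test paired the libraries by stage. Counts of members moved past 1.5 times as follows, and the cause was not tested. Without the deposited intervals, members counted for IL-1β were 7 higher and 10 lower at 1 h, 7 higher at day 3, and 3 higher and 4 lower in vivo, with 1 higher and 1 lower for transfer without IL-1β. The rule then counted 29.0%, 4.97%, 12.5% and 4.16% of all symbols. When symbols at 0 were left out, 0 members were higher at 1 h and 0 for transfer with IL-1β. This was fixed in advance, as each member counted higher there was listed at 0 in 1 library of the pair. Over all symbols 36 of 843 and 809 of 8293 were then higher. For day 3 against 1 h, 39 of 39 and 52 of 53 members compared were higher without and with IL-1β, where 93.7% and 95.5% of all symbols were counted in either direction. For IL-1β at day 3 the higher count was 2 at an equal median ratio and 0 with the length trend removed and with T cell scaling. It was also 0 at equal sums without transcripts lacking a poly(A) tail (the poly(A) total). Over all symbols 112 of 7961, 79 of 7893, 77 of 8082 and 64 of 8152 were higher, in the same order of settings. For IL-1β in vivo the lower count was 1 at an equal upper quartile and 1 with T cell scaling, beside 257 of 8662 and 265 of 8704 symbols. For transfer with IL-1β the lower count was 8, 2, 8 and 11 at an equal upper quartile, with the length trend removed, with T cell scaling and with the poly(A) total. Over all symbols 272 of 8653, 366 of 8502, 280 of 8869 and 325 of 8788 were then lower. Chosen after seeing the data, leaving other cell types' markers out of the total gave 7 members and 249 of 8922 symbols lower. Keeping only symbols of at least 5 FPKM in both day 3 libraries gave 0 members and 306 of 6989 symbols higher. That filter removes Cox4i2 and Cox6a2, listed at 0 at day 3, so its 0 was fixed in advance. For day 3 against 1 h without IL-1β the higher count was 50 at an equal median ratio, 52 at an equal upper quartile, 37 with the length trend removed, 43 with T cell scaling and 43 with the poly(A) total, where 47.5%, 50.1%, 27.2%, 41.4% and 41.6% of all symbols were counted in either direction. The members compared numbered 74 in the first 2 of these settings and 81 in the other 3. The symbols higher were 2200 of 5023, 2384 of 5081, 1953 of 7628, 3170 of 8857 and 3269 of 8827. With IL-1β it was 46 with the length trend removed, 42 with T cell scaling (1 lower) and 48 with the poly(A) total, each of 81 members compared. Of all symbols 28.9%, 35.7% and 35.9% were then counted in either direction. Those higher were 1860 of 7336, 1913 of 9413 (1447 lower) and 2067 of 9265. The limma test called 0 members under all 8 alternatives. The depth is not given. Among members at 5 FPKM or more in a library, the half-width of the deposited interval was widest at 1 h. Its medians there were 97.0% and 68.7% of the FPKM, against 17.0% to 22.6% in the other 4 libraries.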
